A study of Mus musculus with 20 samples.

Results

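The transcripts of 9 genes for transcription factors of the macrophage lineage were followed in the epididymal white adipose tissue (eWAT) of lean and obese mice. The genes were Spi1, Runx1, Irf5, Irf8, Maf, Mitf, Tfec, Tfeb and Bhlhe41. They were taken by name from a list and matched by Ensembl identifier, and all 9 were among the 14776 genes of the deposited table. The 20 mice were male C57BL/6J animals whose diets started at 6 weeks of age and ran for 20 weeks. The NC group (n = 6) ate maintenance chow. The HFD group (n = 7) ate a fat-rich diet (60% of energy) and received saline by gavage in the last 6 weeks. The SZ-A group (n = 7) ate the same fat-rich diet and received 400 mg/kg of Ramulus Mori (Sangzhi) alkaloids, an extract of mulberry, by gavage each day in the last 6 weeks. No mouse carried a stated transgene, the RNA came from whole tissue, and nothing marks the samples as pooled.

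Macrophages arise when a small set of transcription factors acts on the same enhancers of progenitor cells and monocytes. PU.1, the product of Spi1, opens most of these enhancers, RUNX1 works beside it in blood progenitors, and the interferon regulatory factors IRF8 and IRF5 add monocyte identity and the inflammatory response to Toll-like receptors. MAF is a factor of resident, scavenging macrophages, the MiT/TFE factors MITF, TFEC and TFEB switch on lysosomal genes, and BHLHE41 is a basic helix-loop-helix repressor that also acts in the circadian clock. In obese eWAT macrophages gather around dying adipocytes and take up their lipid. None of these factors is confined to macrophages, and RUNX1, MITF, TFEB and BHLHE41 are also made by other cell types.

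Several of these genes have, before a transcription start, letters that a factor of the same list is known to bind, and 5 such windows are printed to show where. The RefSeq promoter table for GRCm38.p6, with 250 bases before and 50 after each start, held 13 promoters of 7 of the 9 genes, and no entry was found for Spi1 or Maf. The windows run 5′ to 3′ on the gene's strand, and capitals mark the matched letters: CACGTG for the E-box of basic helix-loop-helix factors, TTCCTC for the PU box GAGGAA read on the other strand, and ACCACA for the RUNX site TGTGGT read on the other strand.
Bhlhe41: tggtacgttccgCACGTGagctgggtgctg
Runx1 distal: catcacttaagtCACGTGattggcaagagc
Runx1 proximal: gagggaatggaaTTCCTCgggtcgggctta
Tfec: actgagctaataACCACAtactgccattgt
Mitf: tgcccaggcggaACCACAaatcccagggcg
The Bhlhe41 E-box began 153 bases before the start, in the window chr6:145865556-145865585 on the minus strand, of which 3 bases lie in an exon of GENCODE release M21. The Runx1 E-box began 71 bases before the distal RefSeq start, at chr16:92826128-92826157 on the minus strand. Of that window 22 bases, the whole E-box among them, lie in an exon of the GENCODE gene, which begins at 92826149 on that strand. The PU box of the proximal Runx1 promoter began 46 bases before its start, at chr16:92697358-92697387, inside the gene and in no exon. The RUNX sites of Tfec and Mitf began 221 and 81 bases before their starts, at chr6:16898645-16898674 on the minus strand and chr6:97806965-97806994 on the plus strand, both outside the annotated gene. Read on both strands, the E-box was in 7.15%, the PU box in 28.3% and the RUNX site in 16.8% of all 32851 promoters of the table. A match describes letters and not a bound site. The promoters of Irf5 and Tfeb held none of the 6 motifs searched, which also included GAAANNGAA, CATGTG and TGCTGA.

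The libraries held between 13567665 and 19388620 reads on the deposited genes, as recovered from the FPKM values (fragments per kilobase, scaled to library size). The library labelled NC replicate 6 stood apart. Its Adipoq level was 26.6 FPKM, against a NC median of 1482 FPKM, and its Plin1 level was 3.59 FPKM. Its index of 6 measured epididymis and epithelium markers, the mean of log2(FPKM + 1), was 7.32, whereas the HFD mice lay between 0.95 and 1.51. Epithelial transcripts were not limited to that library, since the NC indices went down only to 2.30, and SZ-A replicates 2, 3 and 7 had indices of 5.66, 3.28 and 5.23. The parts played by this material in the differences between groups were not tested beyond the fits given below, and the 9 genes are also compared with NC without NC replicate 6. Mitochondrial genes took 3.30% to 8.34% of the reads in NC, more than in any HFD mouse, where they took 1.67% to 2.92%, and the part of this difference in the results was not tested.

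Spi1, the gene of PU.1, and Runx1, the gene of its partner, were both higher in HFD than in NC and fell with SZ-A. Spi1 (ENSMUSG00000002111, chr2:91082390-91115756, plus strand) was 0.764, 4.0 and 6.49 FPKM at the lowest, median and highest NC mouse, 54.0, 87.8 and 132 FPKM in HFD, and 19.1, 30.8 and 86.1 FPKM in SZ-A. Every HFD mouse and every SZ-A mouse was above every NC mouse, while HFD and SZ-A overlapped. Spi1 had the highest median of the 9 transcripts in both HFD and SZ-A mice, and in NC mice its median ranked behind those of Maf and Irf5.

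Spi1 was 22.8 times higher in mean FPKM in HFD than in NC, and the log2 fold change was 4.28 (SE 0.31; limma over all genes, adjusted p = 2.65e-07). Without NC replicate 6 the ratio of means was 19.6. It fell by 1.36 on the log2 scale in SZ-A relative to HFD (SE 0.33, adjusted p = 0.00972), which left 43.2% of the HFD mean. Its level in SZ-A mice was still 9.83 times that in NC mice, a log2 difference of 2.91 (SE 0.41, adjusted p = 0.00139), and 2.64 without NC replicate 6. In this bulk tissue a lower level can come from fewer cells of a type or from less RNA per cell, and these cannot be told apart.

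Runx1 (ENSMUSG00000022952, chr16:92601466-92826149, minus strand) was 0.356, 0.731 and 13.3 FPKM at the lowest, median and highest NC mouse. The highest value came from NC replicate 6, and the highest of the other 5 NC mice was 1.06 FPKM. Runx1 was 3.49, 5.05 and 6.02 FPKM in HFD and 1.44, 1.87 and 4.10 FPKM in SZ-A.

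With that single library included, HFD and NC overlapped, and without it every HFD mouse and every SZ-A mouse lay above every NC mouse. The log2 fold change of HFD against NC was 1.29 (SE 0.44, adjusted p = 0.0327) over all mice and 1.80 (SE 0.13, adjusted p = 3.10e-07) without NC replicate 6. The call over all mice was lost when any of 9 other single mice was left out, with adjusted p up to 0.0748, and with the replicate number as a block (adjusted p = 0.0851). Runx1 fell by 0.80 in SZ-A relative to HFD (SE 0.18, adjusted p = 0.00586), and all 7 SZ-A mice were below the HFD median. That call was lost with all 3 groups in the limma fit (adjusted p = 0.161). Against NC, the SZ-A difference of 0.49 did not pass (adjusted p = 0.606), but without NC replicate 6 it was 1.01 and passed (adjusted p = 0.0105).

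**Figure D1:**
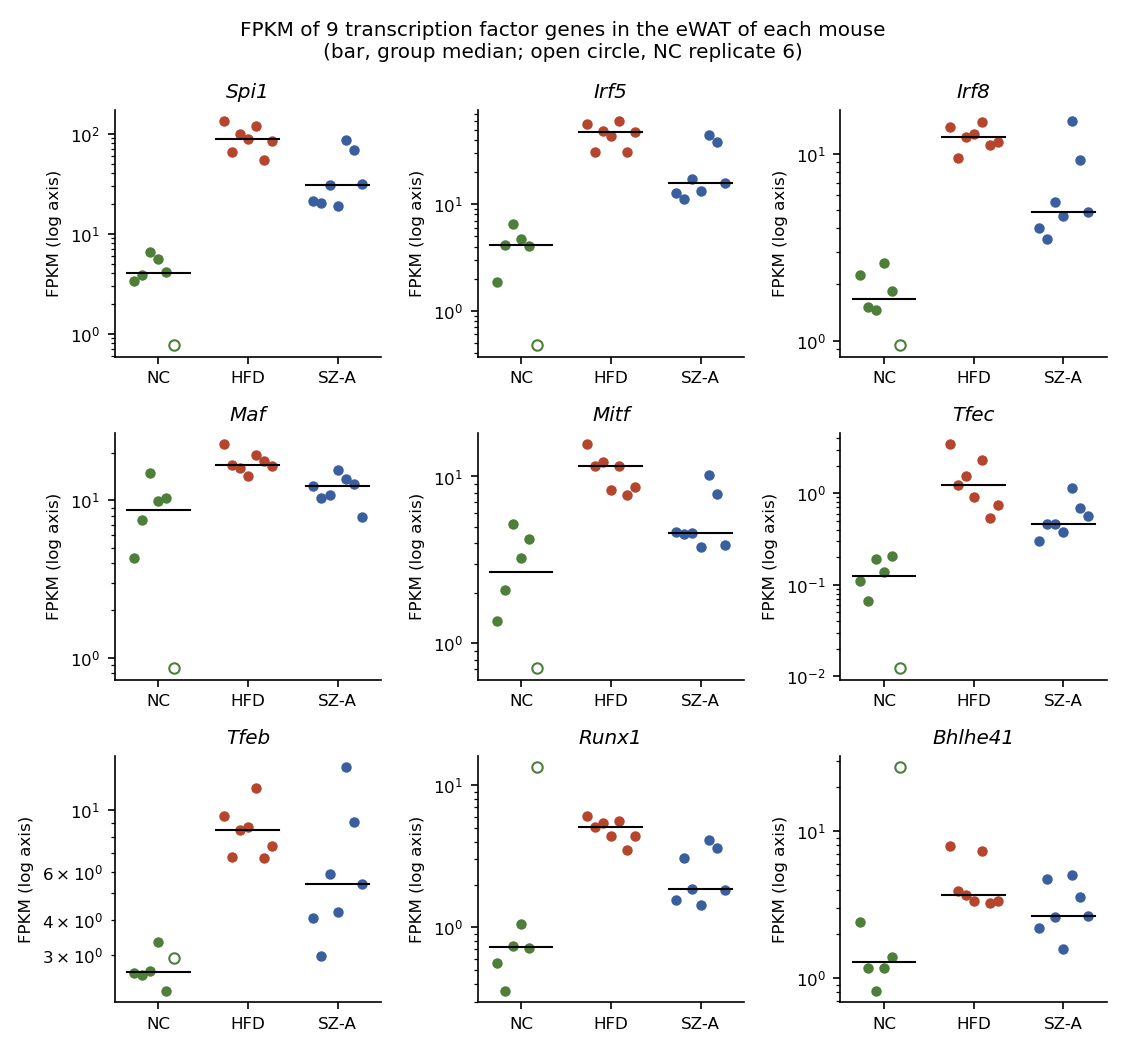
FPKM of the 9 genes in each mouse on a log axis, by group, with a bar at the group median and an open circle for NC replicate 6. That mouse is the lowest NC mouse in 6 panels and the highest for Runx1 and Bhlhe41, at 13.3 and 27.2 FPKM, and SZ-A points spread from near the NC points to the HFD range.

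Both interferon regulatory factors rose with the fat-rich diet and fell with SZ-A. Irf5 (ENSMUSG00000029771, chr6:29526625-29541871, plus strand), which relays Toll-like receptor signals to cytokine genes, was 0.472, 4.10 and 6.47 FPKM at the lowest, median and highest NC mouse. It was 30.8, 47.4 and 59.7 FPKM in HFD and 11.1, 15.8 and 44.5 FPKM in SZ-A. No HFD or SZ-A mouse overlapped the NC mice, and 5 of 7 SZ-A mice were below the lowest HFD mouse.

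The log2 fold change of Irf5 was 3.46 for HFD against NC (SE 0.33, adjusted p = 2.69e-06), and 3.17 without NC replicate 6. For SZ-A against HFD it was -1.17 (SE 0.29, adjusted p = 0.0114), and for SZ-A against NC it was 2.29 (SE 0.41, adjusted p = 0.00549), or 2.0 without NC replicate 6. The order of the group medians was that of Spi1, with HFD highest and NC lowest.

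Irf8 (ENSMUSG00000041515, chr8:120736358-120756694, plus strand), which directs progenitors to monocytes and to a class of dendritic cells, was 0.943, 1.68 and 2.60 FPKM in NC, 9.51, 12.4 and 14.7 FPKM in HFD and 3.50, 4.87 and 14.9 FPKM in SZ-A, at the lowest, median and highest mouse. The HFD mice were tightly grouped, and 6 of 7 SZ-A mice were below all of them, while SZ-A replicate 5 was above all of them. Irf8 rose by 2.28 on the log2 scale in HFD (SE 0.15, adjusted p = 1.12e-07), fell by 0.92 in SZ-A relative to HFD (SE 0.24, adjusted p = 0.0128), and stayed 1.36 above NC in SZ-A (SE 0.28, adjusted p = 0.0116). The differences of Irf8 from NC were 2.19 in HFD and 1.26 in SZ-A without NC replicate 6. Zbtb46, a marker of classical dendritic cells, and Clec9a, a marker of the class that needs IRF8, had HFD medians of 2.54 and 1.26 FPKM and NC medians of 3.39 and 1.19 FPKM. Flt3, a scarcer marker of the same list, had medians of 0.421 FPKM in HFD and 0.197 FPKM in NC. It passed as higher in HFD by 0.33 (limma, adjusted p = 0.00534). Of 8 dendritic cell markers tested, 3 were higher in HFD and 0 lower, and without NC replicate 6 these counts were 3 and 3.

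The ratio of the interferon regulatory factors also differed between diets. Here and for each pair below, 1 was added to each FPKM value before the ratio, which shrinks ratios of scarce transcripts. The mean log2 ratio of Irf5 to Irf8 was 0.59 (SD 0.75) in NC, 1.78 (SD 0.22) in HFD and 1.52 (SD 0.20) in SZ-A. The rise with HFD was 1.18 (exact permutation test, two-sided, p = 0.00233, adjusted over 12 pair tests 0.00932), and it was 0.98 without NC replicate 6. The difference of -0.25 between SZ-A and HFD did not pass after adjustment (exact permutation test, p = 0.0443, adjusted p = 0.0759).

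Maf (ENSMUSG00000055435, chr8:115682942-115707794, minus strand) had the smallest log2 change of the 7 genes that passed as lower in SZ-A. It was 0.858, 8.71 and 15.004 FPKM in NC, 14.2, 16.7 and 22.7 FPKM in HFD and 7.80, 12.4 and 15.6 FPKM in SZ-A, at the lowest, median and highest mouse. Its median was the highest of the 9 in NC tissue. The highest NC mouse reached into the HFD range, and 6 of 7 SZ-A mice were below the lowest HFD mouse.

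Maf rose by 1.32 on the log2 scale in HFD (SE 0.39, adjusted p = 0.0154), or 0.92 without NC replicate 6 (SE 0.22, adjusted p = 0.00431). With the epithelial index as a covariate the estimate for HFD against NC turned to -0.94 and did not pass (adjusted p = 0.170). Maf fell by 0.54 in SZ-A relative to HFD (SE 0.14, adjusted p = 0.0118). The SZ-A and NC groups overlapped, and their difference of 0.78 did not pass (adjusted p = 0.308).

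The MiT/TFE genes rose with HFD, and Mitf and Tfec, but not Tfeb, passed the test as lower with SZ-A. Mitf (ENSMUSG00000035158, chr6:97807052-98021349, plus strand), which governs melanocytes, mast cells and osteoclasts as well as acting in macrophages, was 0.709, 2.66 and 5.22 FPKM in NC, 7.70, 11.5 and 15.6 FPKM in HFD and 3.80, 4.55 and 10.2 FPKM in SZ-A. HFD did not overlap NC, and 5 of 7 SZ-A mice were below the lowest HFD mouse. Its log2 fold change was 1.73 for HFD against NC (SE 0.28, adjusted p = 0.000285) and -0.86 for SZ-A against HFD (SE 0.20, adjusted p = 0.00824), and the SZ-A difference of 0.87 from NC did not pass (adjusted p = 0.133). The rise of Mitf in HFD was 1.53 without NC replicate 6, and with the epithelial index as a covariate the estimate was 0.15 and did not pass (adjusted p = 0.789).

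Cell types that use MITF were looked for with their own markers. Of 10 mast cell markers, 7 were in the table, and their summed level lay between 8.31 and 39.2 FPKM in NC, between 53.2 and 712 FPKM in HFD and between 17.8 and 70.8 FPKM in SZ-A mice. Of 10 osteoclast markers 7 were in the table, and their sum lay between 67.0 and 190 FPKM in NC, between 522 and 1135 FPKM in HFD and between 221 and 685 FPKM in SZ-A mice. Of these 7, 4 passed as higher and 1 as lower in HFD, and with SZ-A 5 fell and 1 rose. Calcr and Ocstamp were not among the genes analysed, and Ctsk is also counted among the MiT/TFE network genes below. The sum therefore does not single out osteoclasts. Of 8 melanocyte markers only 1 was in the table, at no more than 0.445 FPKM in HFD, and Dct, Tyr, Tyrp1 and Mlana were not among the genes analysed. Of the 7 mast cell markers, 4 passed as higher and 1 as lower in HFD, and with SZ-A 4 fell and 1 rose. The parts of mast cells and osteoclasts in the Mitf result were not tested.

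Tfec (ENSMUSG00000029553, chr6:16833373-16898441, minus strand), the family member most restricted to myeloid cells, was the scarcest of the 9 transcripts in each group. It was 0.0123, 0.124 and 0.207 FPKM in NC, from 1 to 22 reads per mouse. It was 0.531, 1.24 and 3.41 FPKM in HFD and 0.303, 0.466 and 1.14 FPKM in SZ-A.

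Neither diet group overlapped NC for Tfec. Its mean FPKM was 12.7 times higher in HFD than in NC, but since 1 is added to each value before the log, the log2 fold change was only 1.08 (SE 0.21, adjusted p = 0.00103). It was 1.05 without NC replicate 6 (adjusted p = 0.00175), and with the epithelial index as a covariate the estimate for Tfec was 0.77 and did not pass (adjusted p = 0.235). It fell by 0.61 in SZ-A relative to HFD (SE 0.20, adjusted p = 0.0433), to 37.5% of the HFD mean. That call did not hold when any of 9 single mice was left out, the highest adjusted p being 0.0947. Against NC, Tfec was higher in SZ-A by 0.47 (SE 0.11, adjusted p = 0.0195), or 0.44 without NC replicate 6 (adjusted p = 0.0353). The log2 ratio of Tfec to Tfeb differed by -0.26 between HFD and NC and by -0.16 between SZ-A and HFD. Neither difference passed (exact permutation test, p = 0.162 and 0.489, adjusted p = 0.243 and 0.503). With a pseudocount of 0.1 in place of 1, the first turned to 1.12 and passed (exact permutation test, adjusted p = 0.0315). The direction of this ratio with HFD therefore depended on the value added.

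Tfeb (ENSMUSG00000023990, chr17:47737030-47792419, plus strand), a master regulator of lysosome formation, was 2.21, 2.59 and 3.34 FPKM in NC, 6.70, 8.52 and 12.02 FPKM in HFD and 2.97, 5.42 and 14.3 FPKM in SZ-A. It was the only gene of the 9 for which NC replicate 6 was neither the highest nor the lowest NC mouse. Its log2 fold change was 1.35 for HFD against NC (SE 0.13, adjusted p = 3.98e-06), and 1.37 without NC replicate 6. For SZ-A against HFD the estimate was -0.45 with a 95% interval from -0.98 to 0.08 (adjusted p = 0.201), and for SZ-A against NC it was 0.90 (adjusted p = 0.0713).

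In SZ-A mice the Tfeb levels ran from below the highest NC mouse to above the highest HFD mouse. The highest SZ-A value came from replicate 5, whose mitochondrial genes took 11.6% of its reads, against 1.67% to 2.92% in HFD mice. Without that mouse the difference from HFD was -0.64 (adjusted p = 0.0225), and the part of RNA quality in it was not tested. The log2 ratio of Mitf to Tfeb was 0.29 (SD 0.31) in HFD and -0.12 (SD 0.33) in SZ-A, and the difference of -0.42 did not pass after adjustment (exact permutation test, p = 0.0350, adjusted p = 0.0699).

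Bhlhe41 (ENSMUSG00000030256, chr6:145858243-145865558, minus strand) did not pass in any of the 3 comparisons of its level over all mice. It was 0.815, 1.28 and 27.2 FPKM in NC, 3.24, 3.70 and 7.95 FPKM in HFD and 1.59, 2.64 and 5.05 FPKM in SZ-A. The highest NC value was again NC replicate 6, 19.5 times the mean of the other 5, whose highest was 2.42 FPKM.

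The log2 fold change of Bhlhe41 for HFD against NC was 0.62 with a 95% interval from -0.54 to 1.77 (adjusted p = 0.378). Without NC replicate 6 it was 1.22 (SE 0.23, adjusted p = 0.000742), and HFD then did not overlap NC. With the epithelial index as a covariate it was 3.01 and passed (adjusted p = 0.0334). That fit includes NC replicate 6, which has both the highest Bhlhe41 value and the highest epithelial index. The index also separates NC from HFD, so covariate and diet cannot be told apart in it. For SZ-A against HFD the log2 fold change of Bhlhe41 was -0.43 with an interval from -0.91 to 0.05 (adjusted p = 0.173), and 4 of 7 SZ-A mice were below the lowest HFD mouse. The ratio of Bhlhe41 to its paralog Bhlhe40 differed by 0.09 between HFD and NC and by -0.13 between SZ-A and HFD, and neither difference passed (exact permutation test, p = 0.503 and 0.483, adjusted p = 0.503 for both).

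Counted together, 8 of the 9 genes passed as higher in HFD than in NC, where 21.0% of all 14706 genes tested did so. A log2 fold change above 1.5 was reached by 4 of them, Spi1, Irf5, Irf8 and Mitf, against 5.43% of all genes, and in 6 the groups did not overlap, against 12.7%. The median log2 fold change of the 9 was 1.35, and that of all genes was -0.04. Without NC replicate 6 all 9 passed, against 22.6% of all genes, 8 did not overlap, against 14.9%, and the median was 1.53. With the epithelial index as a covariate 6 passed, Bhlhe41 among them, while Maf, Mitf and Tfec did not. In that fit 1373 of 14706 genes passed as higher.

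In SZ-A relative to HFD, 7 of the 9 passed as lower, where 13.3% of 14695 genes did so. None went past a log2 fold change of 1.5, which 0.558% of all genes did, and in none were the groups apart, against 4.01% of all genes. The median of the 9 was -0.80, and that of all genes was 0.03. SZ-A replicates 2, 3 and 7 had epithelial indices above 3. Without them only 1 of the 9 passed, against 10.4% of all genes, and this was Runx1. All 9 estimates stayed negative, between -1.13 for Spi1 and -0.23 for Tfeb. The SZ-A mice kept included replicates 5 and 6, which reached the HFD range for 8 and 7 of the 9 genes. In a limma fit of all 3 groups, Runx1 did not pass (adjusted p = 0.161). With the epithelial index as a covariate, 2 of the 9 passed, Runx1 at -0.75 and Mitf at -0.65, where 1583 of 14695 genes passed as lower.

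In SZ-A relative to NC, 4 of the 9 passed as higher, Spi1, Irf5, Irf8 and Tfec, where 4.15% of 14718 genes did so. In those 4 the groups did not overlap, against 3.22% of all genes. Without NC replicate 6 Runx1 joined them, so that 5 passed, against 4.63%, and 5 did not overlap, against 4.14%. With the epithelial index as a covariate 1 of the 9 passed, Spi1 at 2.29 (adjusted p = 0.0208), and the adjusted p of Irf5, Irf8 and Tfec was 0.0700, 0.150 and 0.192. In that fit 143 of 14718 genes passed as higher. With the replicate number as a block Spi1 was again the 1 gene of the 9 that passed (2.93, adjusted p = 0.0397), where 157 of 14715 genes passed as higher. The comparisons share mice, so the values of a gene in them are given side by side and not as separate support.

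**Figure D2:**
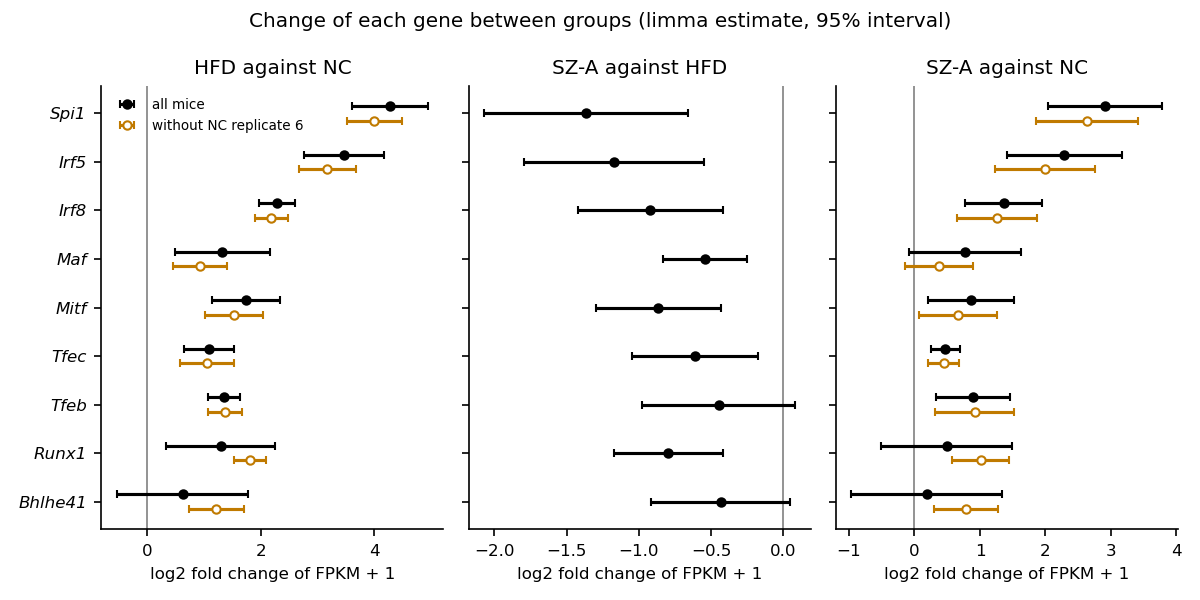
Log2 fold change of FPKM + 1 for each gene in the 3 comparisons, as limma estimates with 95% intervals, with all mice (filled) and without NC replicate 6 (open) where NC was compared. The estimates run from 0.62 to 4.28 for HFD against NC and from -1.36 to -0.43 for SZ-A against HFD, and those of Runx1 and Bhlhe41 against NC move up when NC replicate 6 is left out.

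The SZ-A mice were not alike. SZ-A replicate 5 was at or above the lowest HFD mouse for 8 of the 9 genes, and replicate 6 for 7, whereas each of the other 5 mice reached that range for at most 1 gene. Spi1 was 86.1 and 68.7 FPKM in replicates 5 and 6 and between 19.1 and 31.2 FPKM in the other SZ-A mice. Irf5 was 44.5 and 38.5 FPKM in these mice and 11.1 to 17.0 FPKM in the others. Maf was the exception, since its highest SZ-A value was in replicate 4.

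The macrophage marker index, the mean of log2(FPKM + 1) over 20 markers such as Adgre1, Cd68 and Csf1r, separated the mice in a like way. It lay between 2.04 and 4.23 in NC, between 6.18 and 7.02 in HFD and between 4.89 and 6.17 in SZ-A mice, with 6.17 and 5.90 in SZ-A replicates 5 and 6 and at most 5.17 in the other SZ-A mice. All 20 markers were in the table. Adgre1, which encodes F4/80, had medians of 6.09 FPKM in NC, 215 FPKM in HFD and 50.3 FPKM in SZ-A. The pan-leukocyte marker Ptprc, which encodes CD45, had medians of 1.31, 13.3 and 4.59 FPKM. Of the 20 macrophage markers 18 were higher in HFD than in NC and 16 lower in SZ-A than in HFD, with median log2 fold changes of 3.26 and -1.35.

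**Figure D3:**
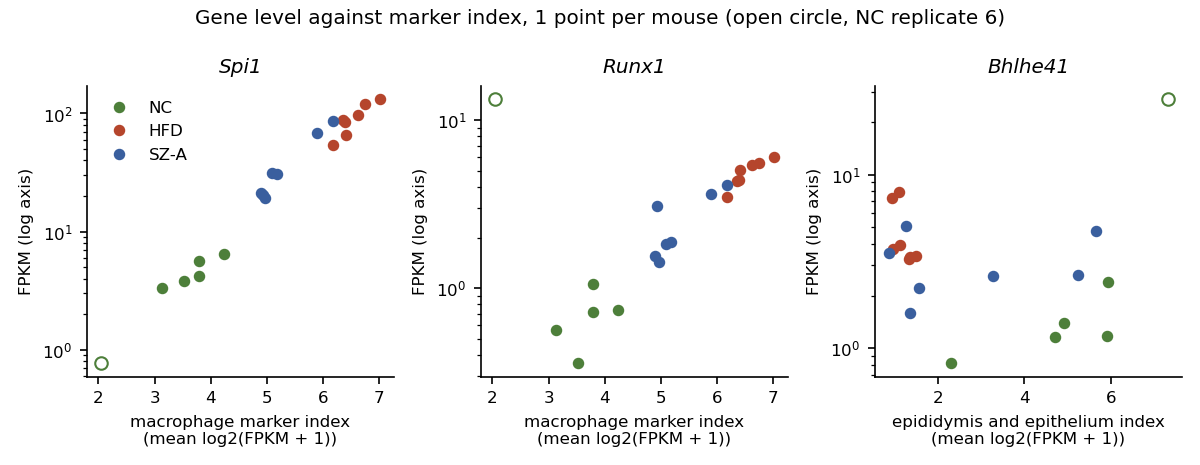
FPKM on a log axis against a marker index, with a point for each mouse. Spi1 climbs with the macrophage index through all 3 groups, Runx1 does so apart from NC replicate 6 (open circle), and the 27.2 FPKM of Bhlhe41 in that mouse falls at the highest epithelial index, 7.32.

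Set against the mean of these markers, Spi1 passed as higher in HFD. With pan-leukocyte markers as the index both Spi1 (1.51) and Irf5 (0.69, adjusted p = 0.0134) passed as higher. The summed level of the 15 pan-leukocyte markers reached 4624 FPKM in the highest NC mouse, against 1875 FPKM in the highest HFD mouse. It reached 2571 FPKM in SZ-A replicate 7, whose epithelial index was 5.23. The part of epithelial material in the pan-leukocyte index was not tested. When the macrophage index was subtracted from each gene, Spi1 rose by 1.16 more than the mean of the markers (SE 0.23, adjusted p = 9.36e-05), where 0.537% of all genes passed as higher. Since 2 of the 20 markers did not pass in HFD and the index is a mean, this does not place Spi1 above each marker. Irf5 differed from the markers by 0.35 (adjusted p = 0.151). The other 7 genes passed as lower than the markers, with Irf8 at -0.83 and Maf at -1.80, and so did 97.9% of all genes. With a pseudocount of 0.1 Irf8 (-0.59, adjusted p = 0.0950), Tfec (-0.64, adjusted p = 0.1002) and Runx1 (-1.35, adjusted p = 0.113) did not pass. Without NC replicate 6 the relative rise of Spi1 was again 1.16 (adjusted p = 5.82e-06).

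In SZ-A relative to HFD, 93.8% of all genes were higher once the falling macrophage index was subtracted. Spi1 at -0.13 (adjusted p = 0.508), Irf5 at 0.06 (adjusted p = 0.740) and Irf8 at 0.31 (adjusted p = 0.0827) were not among them. Their intervals were -0.54 to 0.27, -0.31 to 0.43 and -0.04 to 0.66. The other 6 passed as higher, from 0.37 for Mitf to 0.80 for Bhlhe41. With a pseudocount of 0.1 Mitf (0.31, adjusted p = 0.0770), Tfec (0.15, adjusted p = 0.605) and Runx1 (0.26, adjusted p = 0.209) did not pass, and with pan-leukocyte markers as the index Maf (0.59, adjusted p = 0.0582), Mitf (0.27, adjusted p = 0.256) and Runx1 (0.34, adjusted p = 0.166) did not.

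**Figure D4:**
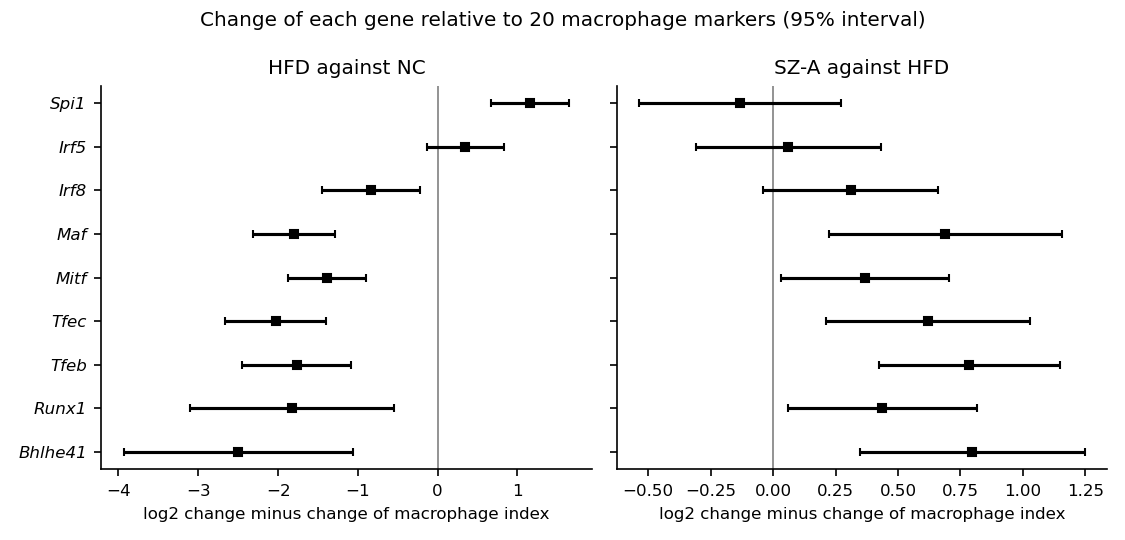
Log2 change of each gene minus the change of the index of 20 macrophage markers, with 95% intervals. In HFD against NC only Spi1, at 1.16, lies above 0 with its whole interval, and in SZ-A against HFD the intervals of Spi1, Irf5 and Irf8 include 0.

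The pair of Spi1 and Runx1 was compared directly, again with 1 added to each FPKM value. The mean log2 ratio of Spi1 to Runx1 was 0.94 (SD 1.95) in NC, 3.93 (SD 0.30) in HFD and 3.36 (SD 0.58) in SZ-A. The difference between HFD and NC was 2.99 (exact permutation test, two-sided, p = 0.00117, adjusted p = 0.00699), or 2.19 without NC replicate 6. The difference of -0.57 between SZ-A and HFD did not pass after adjustment (exact permutation test, p = 0.0344, adjusted p = 0.0699).

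The order of the levels was also set beside the spread. In HFD mice it was Spi1, Irf5, Maf, Irf8, Mitf, Tfeb, Runx1, Bhlhe41 and Tfec by median FPKM, a unit that accounts for gene length. Only the steps from Irf5 to Maf and from Tfeb to Runx1 had ranges that did not overlap, although Spi1 exceeded Irf5 and Maf exceeded Irf8 in 7 of 7 mice. In NC mice Maf exceeded Irf5 in 6 of 6 mice, and Irf5 and Spi1 had medians of 4.10 and 4.0 FPKM with Irf5 higher in only 1 mouse. In SZ-A mice Tfeb, Irf8 and Mitf overlapped, at medians of 5.42, 4.87 and 4.55 FPKM.

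Within groups, the mice that were high for one of the myeloid factors tended to be high for others. After each group's mean was subtracted, the correlation of Spi1 and Irf5 was 0.97 over 20 mice and 0.95 over the 19 mice without NC replicate 6. That of Irf8 and Tfeb was 0.89 and 0.95. That of Runx1 and Bhlhe41 was 0.94 over all mice and 0.67 without that mouse. Maf was at 0.70 with Mitf, 0.11 with Irf8 and 0.18 with Tfeb without that mouse. These are descriptions over mice that share cell composition and depth.

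By the same measure among 12450 genes, the gene most like Spi1 was Igf2bp2 (0.98), followed by Tyrobp (0.97), the DAP12 signalling adaptor of myeloid cells, and Lrrc25 (0.97). The genes most like Irf5 were Selplg (0.98), Sirpa (0.98) and Cd37 (0.97), surface proteins of leukocytes. Those most like Irf8 were Cyba (0.93), Cdk20 (0.92) and Arhgap25 (0.91), and Cyba encodes a subunit of the phagocyte oxidase. Mitf was most like Ptprc (0.96), Cd48 (0.95) and Tmem71 (0.95).

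Tfeb was most like Ctsd (0.98), the lysosomal protease cathepsin D, then Csf2ra (0.95) and Lat2 (0.94). Ctsd had mean levels of 283 FPKM in NC, 1897 FPKM in HFD and 1145 FPKM in SZ-A, and it stayed within the first 3 for Tfeb without NC replicate 6 (0.98). Tfec was most like B430306N03Rik (0.92), Clec4d (0.91) and Panx1 (0.91). Maf was most like Bnip2 (0.97), Ccl11 (0.97) and B3galnt1 (0.97), Runx1 was close to Ifngr2 (0.97) and Creg2 (0.96), and Bhlhe41 was most like Creg2 (0.96), Cndp2 (0.96) and Bhlhe40 (0.94). For Spi1, Irf8, Runx1 and Bhlhe41 none of these was among the first 3 without NC replicate 6, when Tbxas1 (0.99), Matk (0.96), Clec12a (0.90) and Alcam (0.90) came first.

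The wider circuit was described with 11 lists of genes, chosen with earlier results known, and some of their genes are also among the 20 macrophage markers. Their counts include NC replicate 6 unless stated. The list of PU.1-dependent genes had the largest medians in both comparisons. All 23 tested genes that depend on PU.1 in myeloid cells were higher in HFD than in NC, with a median log2 fold change of 3.32, and 18 fell with SZ-A relative to HFD, with a median of -1.26. Cybb, the catalytic subunit of the phagocyte oxidase, fell by 1.58 with SZ-A, Fcgr1, the high-affinity IgG receptor, by 1.56 and Itgb2, the β2 integrin chain, by 1.54.

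Growth factors and receptors that act before these factors were read next. Of 11 tested, 7 were higher in HFD and 4 lower in SZ-A. Csf1r, the receptor for macrophage colony-stimulating factor and itself a target of PU.1, had means of 16.3 FPKM (SD 10.1) in NC, 142 FPKM (SD 21.8) in HFD and 56.5 FPKM (SD 20.5) in SZ-A. Its log2 fold change was -1.37 for SZ-A against HFD (adjusted p = 0.00043). Its ligand Csf1 fell by 0.54, Tnfrsf11a, the receptor RANK, by 1.25 and the scarce Flt3 by 0.22.

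Of 20 receptors and adaptors that act before IRF5, 12 were higher in HFD and 11 lower in SZ-A, while 1 was higher in SZ-A. The nucleic acid sensors Tlr8, Tlr13 and Tlr7 fell by 1.83, 1.70 and 1.31 in SZ-A, and their chaperone Unc93b1 by 1.04. Mean Tlr8 levels were 0.998 FPKM (SD 0.801) in NC, 31.3 FPKM (SD 5.11) in HFD and 8.96 FPKM (SD 5.40) in SZ-A. Of 10 tested inflammatory genes that depend on IRFs, 5 were higher in HFD and 3 lower in SZ-A, these being Ebi3 (-0.99), the class II transactivator Ciita (-0.77) and the chemokine Cxcl10 (-0.37). Cxcl10 had not passed as changed in HFD, at -0.06 (adjusted p = 0.818).

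Of 18 genes linked to MAF in resident macrophages, 10 were higher in HFD and 9 fell with SZ-A. Folr2, a folate receptor of resident macrophages, had means of 1.59 FPKM (SD 1.10) in NC, 21.2 FPKM (SD 6.16) in HFD and 4.56 FPKM (SD 1.36) in SZ-A, and fell by 1.98 (SE 0.19, adjusted p = 0.000109). The mannose receptor Mrc1 fell by 1.54, and the complement genes C1qb and C1qc by 1.46 and 1.45.

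Lysosomal and phagocytic genes of the MiT/TFE network formed the largest list, and 33 of 45 were higher in HFD, 2 lower, and 29 lower in SZ-A than in HFD. The median log2 fold changes were 1.11 and -0.70. Gpnmb, a glycoprotein of lipid-laden macrophages, had means of 7.36 FPKM (SD 4.56) in NC, 805 FPKM (SD 374) in HFD and 267 FPKM (SD 192) in SZ-A, and fell by 1.76 (SE 0.41, adjusted p = 0.00764). Ctsk fell by 1.72, Slc37a2 by 1.61 and the lipid receptor Trem2 by 1.59. Of 24 regulators of the MiT/TFE factors, such as folliculin partners and Rag GTPases, 9 were higher in HFD and 4 lower in SZ-A, among them Fnip2 (-1.16), Fnip1 (-0.54), Rraga (-0.43) and Rptor (-0.28).

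Of 16 relatives of the 9 genes, 2 were higher and 2 lower in HFD, or 4 and 2 without NC replicate 6, and 3 were lower in SZ-A, among them Tfe3 (-0.60) and Irf2 (-0.37). Of 38 other myeloid transcription factors, 16 were higher in HFD, 9 lower in SZ-A and 1 higher in SZ-A. Atf3, a stress-induced factor, was 3.17 FPKM (SD 1.46) in NC, 156 FPKM (SD 47.2) in HFD and 70.2 FPKM (SD 66.3) in SZ-A, and fell by 1.54 (adjusted p = 0.0180), while Ikzf1 and Zeb2 fell by 0.96 and 0.79, and Id3 rose by 0.87. Of 13 partners of RUNX, 4 were higher in HFD and 3 lower in SZ-A. These were Lmo2 (-0.99), Cbfb (-0.57), the obligate RUNX subunit, and Tle4 (-0.55), whereas Gata2 was higher by 0.47.

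For the 13 BHLHE41 partners and clock genes, 1 was higher and 1 lower in HFD, and the median was -0.10. These counts were 2 and 1 without NC replicate 6, and the median was -0.25. In SZ-A relative to HFD, Npas2 (-0.89) and Arntl (-0.60) were lower and Cry1 (0.44) was higher. The 11 list medians in SZ-A ran from -1.26 for PU.1-dependent genes to 0.02 for clock genes, beside 0.03 for all genes.

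**Figure D5:**
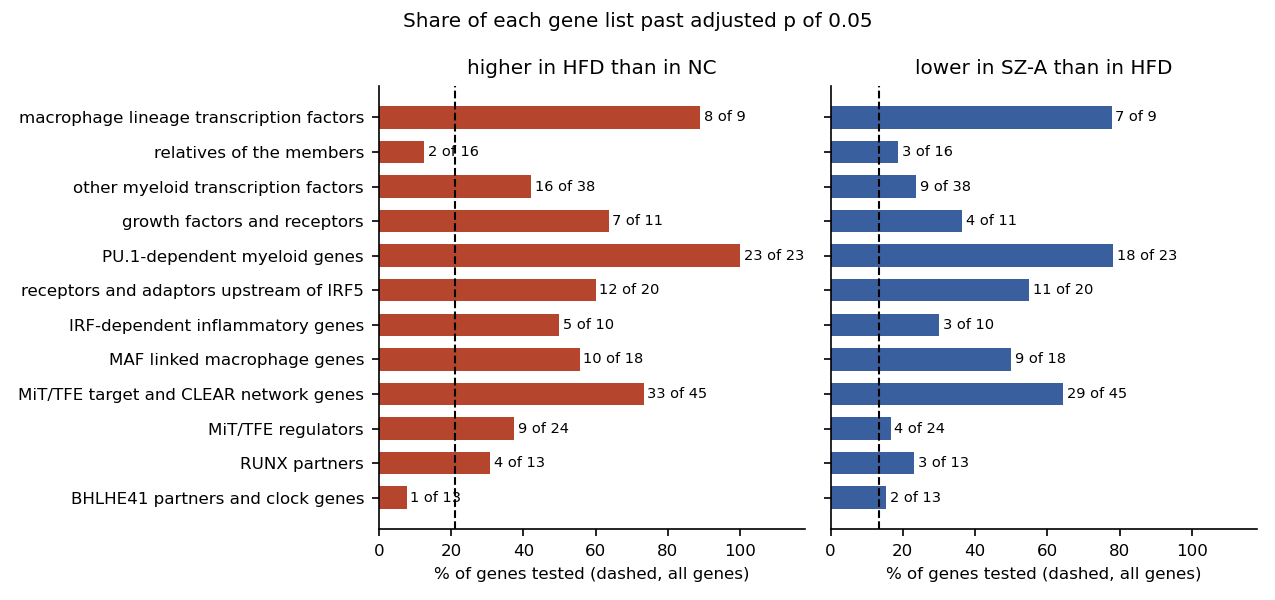
Percent of the tested genes of each list that passed at an adjusted p under 0.05, higher with HFD (left) or lower with SZ-A relative to HFD (right), with the share of all genes as a dashed line at 21.0% and 13.3%. The PU.1-dependent list reaches 23 of 23 on the left and 18 of 23 on the right, and the clock list stays at 1 of 13 and 2 of 13.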

How the data were processed

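Poly(A) RNA from the eWAT of 20 mice was sequenced as paired-end reads and aligned to GRCm38 with HISAT2 by the authors, and their processing notes name featureCounts 1.5.0-p3. The deposited values are FPKM for 14776 genes, all above 0 in each mouse, so alignment, counting, length scaling and the filter on genes were done before deposit. Library strand and annotation release are not given in the sources used here. Labels give 6 NC mice, although the text of the study states 7 mice in each sequenced group. Nothing states a batch or date, and p-values measure the spread between these mice.

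Groups were compared with limma 3.58.1 in R 4.3.3 (lmFit, eBayes with a trend) on log2(FPKM + 1). Genes whose mean over the compared mice was below 0.1 FPKM were dropped, p-values were adjusted over the rest by the Benjamini-Hochberg method, and a gene passed at an adjusted p under 0.05. The limit of 1.5 for the log2 fold change comes from the study's methods. DESeq2, which the authors used, needs counts and was not run. Reads were recovered as FPKM times GENCODE M21 exon length, and 95.9% to 96.3% of values under 1000 reads were whole within 0.01 reads, which a required share of 0.95 partly builds in. They served for depth and for voom as an alternative. On simulated data for SZ-A against HFD with 14695 genes, 195 of 200 genes changed by -2 were called, with 15 false calls, and 0 calls were made with no change. The estimates of the 9 genes in that comparison lay between -1.36 and -0.43. The simulation therefore does not tell how often changes of their size would be called. Pair tests were exact permutation tests over all regroupings, 12 in all, on the log2 ratio of FPKM + 1 of the 2 genes.

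The 9 genes and all lists were chosen with earlier results of these data known. Genes named are the 9, up to 4 per list with the largest called change of SZ-A against HFD, the 3 most alike per gene among those with a mean of at least 1 FPKM, and up to 3 leading markers per cell type. A few genes that this rule names, and a pair test, are not reported here. Of the 9 genes, 9 passed the filter in each comparison. Lists of B cell, T cell, neutrophil, dendritic, endothelial, fibroblast, adipocyte and mesothelium markers were also read. Replicate numbers were not used as pairs, since same-numbered mice deviated from their group means with correlations between -0.30 and 0.31 for HFD and NC, -0.40 and 0.39 for SZ-A and HFD, and -0.41 and 0.59 for SZ-A and NC. Alternatives were other pseudocounts, filters, scalings, weights, voom, all groups in the fit, a replicate block, an epithelial covariate and leaving out each mouse. Leaving out the 3 SZ-A mice with epithelial indices above 3 was added after the values were seen. Tables and plots used Python 3.11.15, pandas 2.3.3, NumPy 2.4.6, SciPy 1.17.1 and matplotlib 3.10.9.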

Additional observations from a re-analysis of the deposited data

Results flagged for a closer look

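Over the 9 genes in 3 groups, 27 sets of mice were examined for a value far from the rest, and chance alone would pick out about 1 in 20. In both sets that were picked out, the value was the highest NC value and belonged to NC replicate 6. Runx1 was 13.3 FPKM in that mouse and at most 1.06 FPKM in the other 5 NC mice. Bhlhe41 was 27.2 FPKM there and at most 2.42 FPKM in the others. In the same mouse Spi1 was 0.764 FPKM, 0.163 times the mean of the other NC mice, Maf was 0.0912 times and Tfec 0.0863 times that mean, while Tfeb, at 1.10 times, was not low. Its adipocyte index was 3.96, whereas those of the other NC mice lay between 8.09 and 9.31. The part of the epithelial material in the Runx1 and Bhlhe41 values was not tested.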

How the results depend on the processing

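Of the level results under alternatives other than leaving out a mouse, 284 kept direction and call, 37 lost and 9 gained the call, and 1 reversed. With the epithelial index as a covariate 6 genes were called in HFD against NC, where Maf, at -0.94 (adjusted p = 0.170), Mitf, at 0.15, and Tfec, at 0.77, lost the call and Bhlhe41, at 3.01, gained it, and the same covariate left 2 genes called in SZ-A against HFD and 1 in SZ-A against NC. The index separates NC from HFD, so covariate and diet cannot be told apart. Leaving out the 3 SZ-A mice with epithelial indices above 3 left 1 gene called in SZ-A against HFD and 3 relative to the macrophage index. A log2 fold change above 1.5 was reached by 4 genes in HFD against NC, 0 in SZ-A against HFD and 2 in SZ-A against NC. Array quality weights raised the count of SZ-A against NC from 4 to 7, while over all genes the number higher rose from 611 to 1713 of 14718. Relative to the macrophage index, a pseudocount of 0.1 gave 5 genes for HFD against NC and 3 for SZ-A against HFD, and pan-leukocyte markers as the index gave 3 for SZ-A against HFD, with Irf5 at -0.037. The log2 ratio of Tfec to Tfeb rose by 1.12 in HFD with a pseudocount of 0.1 (exact permutation test, adjusted p = 0.0315) instead of falling by 0.26. The cause was not tested in any of these.

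With the replicate block, 7, 6 and 1 genes were called in HFD against NC, SZ-A against HFD and SZ-A against NC, and 8 and 4 relative to the index. Over all genes, 2423 of 14709 passed as higher, 1590 of 14695 as lower and 157 of 14715 as higher in those comparisons. Relative to the index, 14434 of 14709 and 13698 of 14695 genes were called. The replicate numbers do not pair the mice. Leaving out each mouse in turn gave 7 to 9, 6 to 8 and 3 to 5 genes, and 8 and 4 to 6 relative to the index. Bhlhe41 in SZ-A against NC ran from -0.0079 without NC replicate 3 to 0.78 without NC replicate 6, and Irf5 relative to the index in SZ-A against HFD from -0.0024 without SZ-A replicate 6, and -0.00055 without HFD replicate 2, to 0.12 without SZ-A replicate 2. Runx1 in HFD against NC lost its call without any of 9 mice, with adjusted p up to 0.0748, and without NC replicate 6 its adjusted p was 3.10e-07. Depth limits Tfec most, which had 1 read in NC replicate 6.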

Other observations

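Markers of other cell types moved beside the 9 genes. Of 10 fibroblast and progenitor markers, 7 were higher and 1 lower in HFD than in NC, and 8 fell in SZ-A relative to HFD, with Col1a1 medians of 14.4 FPKM in NC, 172 FPKM in HFD and 57.0 FPKM in SZ-A. The mast cell protease Cma1 had medians of 3.95 FPKM in NC, 56.9 FPKM in HFD and 5.47 FPKM in SZ-A. Of 9 T cell markers 1 was higher in HFD and 2 lower in SZ-A, of 4 B cell markers 0 passed in either comparison, and of 10 endothelial markers 0 passed in HFD and 1 was higher in SZ-A. Of 10 adipocyte markers 1 was higher and 2 lower in HFD, and 2 were higher in SZ-A. Without NC replicate 6, 1 adipocyte marker was higher and 6 were lower in HFD, and their median log2 fold change was -0.92. Both neutrophil markers in the table were higher in HFD and 0 passed in SZ-A, of 8 dendritic cell markers 3 were higher in HFD and 1 higher and 1 lower in SZ-A, and of 2 mesothelium markers 1 was lower in HFD.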
